A study of Mus musculus with 12 samples.

Results

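The numbered Zfp genes are mouse genes whose symbol is Zfp followed by a number alone, with Zfp36, a CCCH-type RNA-binding protein, left out. The array carried probes for 338 of them, matched through the RefSeq transcript that each probe names. Of these, 293 were kept because at least 1 probe lay well above background, by the scanner software's own flag, on all 4 arrays of at least 1 group. They are 293 of the 20845 genes that passed the same filter. The members were thus chosen by their measured signal over background, and each is represented by its brightest probe.

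Most proteins of this set carry tandem C2H2 zinc fingers, small folds that hold a zinc ion and read short stretches of DNA. Many also carry a KRAB domain, which recruits the corepressor Trim28 and, through it, the histone H3K9 methyltransferase Setdb1, and such proteins are best known for silencing retroviral and other repeated sequences. Others have no KRAB domain and act as activators, chromatin partners, RNA-binding proteins or ubiquitin and SUMO ligases.

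The cells came from the peritoneum of C57BL/6 mice, 8 weeks old and labelled WT (wild type) in all 3 groups, and the adherent macrophages were kept overnight without serum before treatment. Vehicle went to the control group, 10 ng/ml of IL4 to the IL4 group, and the same dose of IL4 plus 50 µM of emodin to the third, whose arrays are called emodin arrays here. Each group had 4 arrays. IL4 is the cytokine that drives the alternative activation of macrophages, and emodin is a plant anthraquinone. The sample descriptions name a treatment of 6 h and the treatment protocol an overnight one, which the labels leave unsettled. The series text calls the material white blood cells and polymorphonuclear cells of the blood, against the peritoneal macrophages of the sample labels. Whether the RNA on an array came from 1 mouse or from pooled mice is not stated, so the p-values reflect only how far these samples differ from each other, and some of that may be technical. No group received emodin without IL4.

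Some facts about the arrays stand before the results. Of the 10 macrophage markers listed, 9 had a probe, and 8 of the 9 lay above background on all 12 arrays, with a summed level of 655 to 666 on control, 719 to 813 on IL4 and 667 to 790 on emodin arrays, in units of the array's 75th percentile. The neutrophil list summed to 108 to 130, 111 to 124 and 142 to 173 in the same order. Of its 9 markers with a probe, 5, 5 and 4 lay above background on all 4 arrays of the group, and Ngp on no array. The B cell list summed to 1.03 to 2.37, 1.15 to 2.16 and 0.354 to 0.548. Of its 5 markers with a probe, 3, 3 and 1 lay above background on all 4 arrays, with Pax5 below it on all 12. The mesothelial and fibroblast list summed to 20 to 86.4, 22.7 to 112 and 28.3 to 125, with 8, 9 and 9 of 9 markers above background on all 4 arrays. The part of these other cells in the results was not tested. The labels call 6 arrays male, yet Xist lay above background on 12 of 12 arrays, and Ddx3y, Eif2s3y and Kdm5d on none of the 12. Control and IL4 arrays shared a slide and a scan, and all 4 emodin arrays had another. The slide and the drug therefore cannot be told apart. IL4 arrays lay in one row of that slide and control arrays in the other, so slide row and IL4 cannot be told apart either. The 75th percentile of intensity was 633 to 809.6 on control, 761 to 813 on IL4 and 447 to 516 on emodin arrays.

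Every level below is a log2 intensity minus the 75th percentile of its own array, and every difference is a difference of such levels. Levels of different genes come from different probes and are not set against each other. Since RNA came from whole cultures, fewer cells of a type and less RNA per cell cannot be told apart. A gene was called higher or lower where limma's adjusted p, over all 20845 genes, was below 0.05.

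Sequence was the first property examined that the choice of members did not use. Windows running from 250 bases before to 50 bases after the start of a gene were taken from RefSeq on GRCm38.p6 for 249 of the 293 members, and 44 members had none. The table held 305 such windows for the members and 32851 in all. The 32851 windows were not limited to genes above background, as the members were. Shares set against them therefore mix that filter with the family. The element searched for, on both strands, was ACTACA followed by any 3 bases and CCCA. It is the core of the sequence bound by the activator Zfp143, itself a member. Its letters were settled on after the members' windows had been looked at, so its share is a description. It stood in 48 windows, or 15.7%, against 1.69% of all windows. Counted by gene, 47 of 249 members held it (18.9%), against 524 of 27025 genes (1.94%). The 8 stretches of 53 bases shown next are the elements of 4 members called higher and 4 called lower with emodin against IL4, to let the shared letters be seen beside opposite differences. Capitals mark the element, which reads TGGG, 3 bases and TGTAGT where it lies on the opposite strand, and each stretch runs 5′ to 3′ along its gene.
Zfp949 (GRCm38.p6 chr9:88548006-88548058, plus strand): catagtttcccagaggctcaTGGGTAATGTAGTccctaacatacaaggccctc
Zfp738 (GRCm38.p6 chr13:67683537-67683589, minus strand): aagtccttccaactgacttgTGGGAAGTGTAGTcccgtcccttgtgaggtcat
Zfp1 (GRCm38.p6 chr8:111643396-111643448, plus strand): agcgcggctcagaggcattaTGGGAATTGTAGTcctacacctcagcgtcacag
Zfp458 (GRCm38.p6 chr13:67269141-67269193, minus strand): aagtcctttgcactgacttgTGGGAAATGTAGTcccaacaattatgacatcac
Zfp933 (GRCm38.p6 chr4:147848418-147848470, minus strand): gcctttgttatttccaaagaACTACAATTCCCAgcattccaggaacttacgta
Zfp273 (GRCm38.p6 chr13:67813728-67813780, plus strand): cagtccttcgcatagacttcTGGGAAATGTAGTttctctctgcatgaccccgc
Zfp93 (GRCm38.p6 chr7:24270325-24270377, plus strand): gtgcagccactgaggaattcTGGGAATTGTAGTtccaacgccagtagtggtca
Zfp455 (GRCm38.p6 chr13:67194429-67194481, plus strand): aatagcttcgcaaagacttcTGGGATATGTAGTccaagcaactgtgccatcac

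The first 4 genes had log2 differences of 1.95, 1.64, 1.12 and 1.06 with emodin against IL4, and the last 4 of -1.57, -1.09, -1.06 and -1.03. In 7 of the 8 the element lay on the strand opposite to the gene. Over all members 36 of the 50 elements did so, where the element of Zfp169 is counted once in each of its overlapping windows. In this count the first base of an element lay at -224 to 6 from the gene's start, with a median of -59.5. By outcome with emodin against IL4, the element stood in 26.4% of the members called higher (19 members), 17.8% of those called lower (19) and 12.9% of those not called (9). No test was made of these shares, and members of one neighbourhood are often copies of each other, so their windows are not independent. Zfp458 and Zfp455, which belong to one neighbourhood on chromosome 13, both carry the element and were called in opposite directions.

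Other sequence features of the windows were searched on both strands as well. The GC box GGGCGG stood in 47.5% of the members' windows and 35.7% of all windows, and the ETS core CCGGAAG in 20% and 8.86%. The TATA box letters TATAAA stood in 7.54% and 13.6%. In 2 of the members' windows an ETS core overlapped a GC box, and in none did either overlap the Zfp143 element. A window of the members held a median of 14 CpG dinucleotides, against 7 over all windows. Since all windows were again taken without the signal filter, the filter and the family cannot be told apart in these contrasts.

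The first comparison, of IL4 with control, is about the cytokine alone. The set as a whole showed little movement: 16 of 293 members were called higher and 15 lower, while 8.98% and 8.56% of all tested genes were called in those directions. The members' median log2 difference was -0.03, as was that of all genes, and the members' quartiles were -0.15 and 0.09. Among members whose groups did not overlap and that were measured on all arrays of both groups, or on none of one, the 8 largest rises were Zfp786, Zfp703, Zfp362, Zfp142, Zfp101, Zfp523, Zfp507 and Zfp809, and the 8 largest falls Zfp229, Zfp503, Zfp275, Zfp867, Zfp467, Zfp532, Zfp608 and Zfp287. Zfp473, above background on 2 of the 4 control arrays and passed through the IL4 arrays alone, was higher with IL4 by 1.24 and is not among them.

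Zfp786 had levels of -4.92, -4.91, -4.42 and -4.77 on the control arrays, none of them above background, and of -1.96, -1.74, -1.85 and -1.89 on the IL4 arrays. Every IL4 array lay far above every control array, and the rise was at least 6.19-fold. This gene passed the filter through the IL4 arrays alone, so that it had to differ and no test is given.

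Zfp703 encodes a transcriptional corepressor known from luminal breast cancer. Its levels were 4.37, 3.83, 3.76 and 3.98 on control arrays and 5.22, 4.91, 5.03 and 4.99 on IL4 arrays. The groups did not overlap, and the IL4 arrays were higher by 1.05 ± 0.14 (adjusted p by limma of 0.000261), or 2.07-fold. Here and below, ± gives limma's SE. It uses a spread pooled over all 3 groups of 4 arrays and drawn toward that of the other genes. Zfp503, a relative of Zfp703 in the same corepressor family, moved the other way: its levels were -0.01, -0.20, -0.08 and 0.12 on control arrays and -1.04, -0.98, -0.88 and -0.62 on IL4 arrays, a difference of -0.84 ± 0.14 (limma adjusted p = 0.00142). A second probe of Zfp503 gave -0.98.

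Zfp362, a DNA-binding protein closely related to Zfp384, had levels of 1.28, 0.65, 0.79 and 1.01 on control arrays and 1.87, 1.67, 1.68 and 1.99 on IL4 arrays. The groups were apart by 0.87 ± 0.14 (limma adjusted p = 0.00125). Zfp101 rose from -1.22, -1.07, -0.92 and -1.06 to -0.31, -0.40, -0.32 and -0.28, a difference of 0.74 ± 0.10 (limma adjusted p = 0.000376). Zfp142 rose by 0.76 ± 0.14, and its second probe by 0.86. Zfp523, the mouse form of the activator ZNF76 and a close relative of Zfp143, rose by 0.56 ± 0.11 (limma adjusted p = 0.00338), whereas Zfp143 itself differed by 0.02 ± 0.08 (limma adjusted p = 0.879). Zfp809, which recognises the primer binding site of murine retroviruses and silences them, rose by 0.45 ± 0.09 on its brightest probe (limma adjusted p = 0.00327) and differed by 0.02 on the other. Zfp507 rose by 0.46 ± 0.12 (limma adjusted p = 0.0205), a call that was lost on leaving out control array 1, IL4 array 3 or IL4 array 4, where adjusted p reached 0.0612. With normexp background correction Zfp507 differed by 0.17 and was not called (limma adjusted p = 0.237).

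Among the falls was Zfp275, whose groups did not overlap. Its levels were 1.15, 1.03, 1.04 and 1.02 on control arrays and 0.24, 0.17, 0.19 and 0.32 on IL4 arrays, a difference of -0.83 ± 0.08 (limma adjusted p = 1.56e-05). Zfp467, a regulator of the choice between fat and bone cell fates, fell from 1.92, 1.96, 1.98 and 2.15 to 1.43, 1.40, 1.36 and 1.46, by 0.59 on the log2 scale (SE 0.07; limma adjusted p = 9.22e-05). All 4 probes of Zfp467 fell, the other 3 by 0.59, 0.60 and 0.81. Zfp229 fell from between -1.76 and -1.60 to between -3.12 and -2.66, a difference of -1.15 ± 0.21 (limma adjusted p = 0.00218), and its other probe gave -1.14. Zfp867 differed by -0.81 ± 0.10 and Zfp532, which works in one complex with Zfp592 and Zfp687, by -0.52 ± 0.13, with adjusted p of 0.000145 and 0.014. With normexp the difference of Zfp229 was -0.63, still called.

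The count of falls changed when single arrays were left out, and so did the share of all genes called lower. With all arrays 15 members and 8.56% of all genes were lower. Without control array 1 the members numbered 13 (8.75% of all genes), without control array 2 they numbered 8 (6.5%). Without control array 3 they numbered 7 (6.79%) and without control array 4 they numbered 9 (6.71%). Leaving out IL4 array 1, 2, 3 or 4 gave 9 (6.76%), 10 (6.67%), 8 (6.56%) and 9 (6.28%). Zfp287, at -0.42 ± 0.12 with adjusted p = 0.0338, lost its call on leaving out any of the 8 arrays (adjusted p of 0.0515 to 0.0765). Zfp608, at -0.46 ± 0.13 with adjusted p = 0.0249, lost it without control array 1, control array 3, IL4 array 2 or IL4 array 3, where adjusted p rose to at most 0.072. With scaling on the arrays' spike-in controls, Zfp532, Zfp608 and Zfp287 lost their calls, at -0.40, -0.35 and -0.30 (limma adjusted p = 0.117, 0.263 and 0.291). In that setting 5 falls remained called of the 15, and 14 of the 16 rises. Over all genes 3.18% were then called lower and 8.39% higher.

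**Figure D1:**
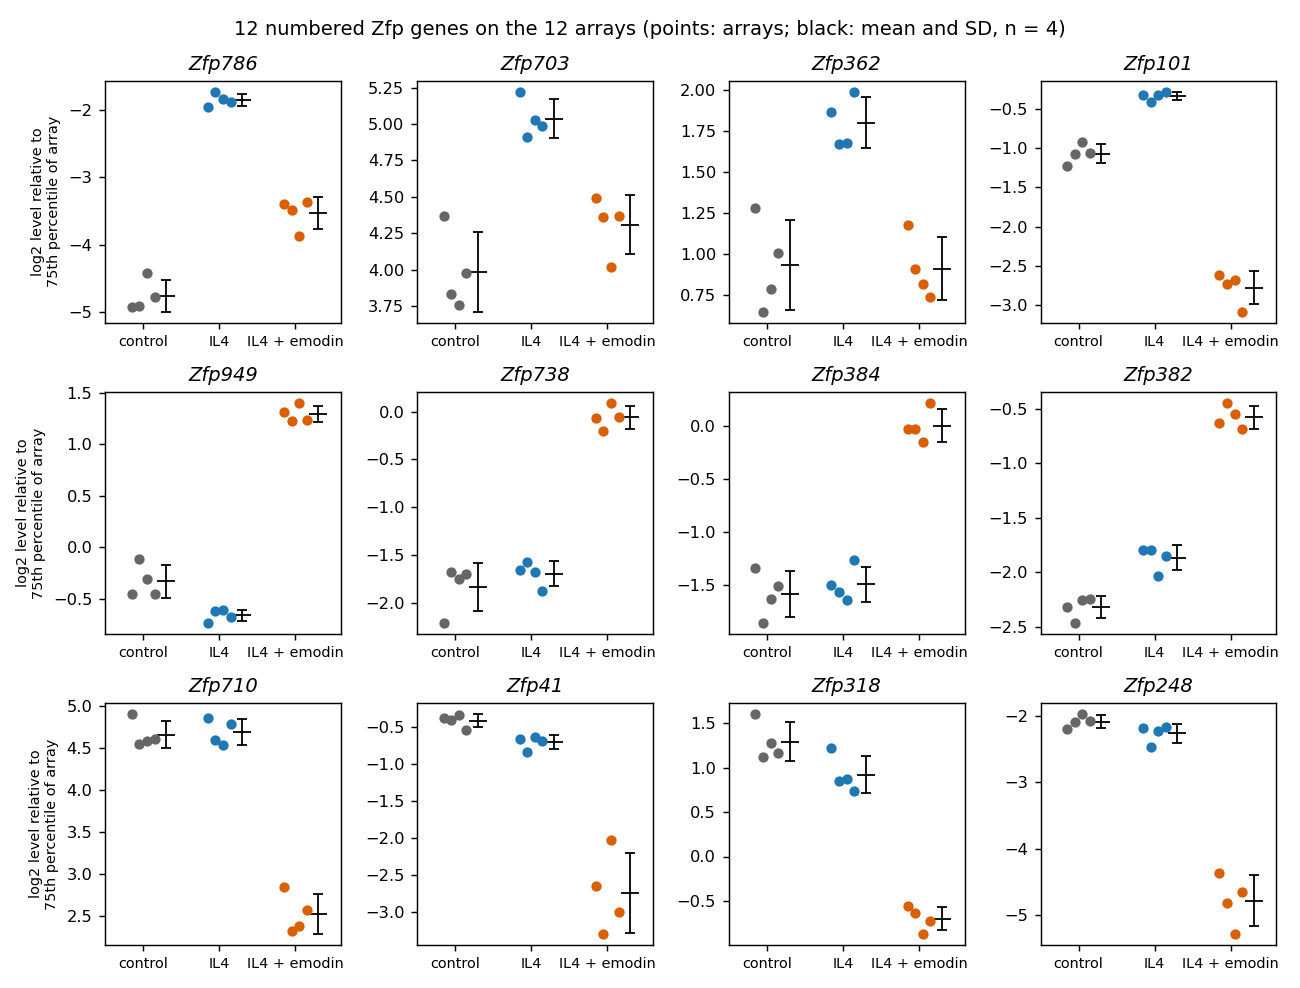
Log2 level relative to the array's 75th percentile (y axis, its own range in each panel) on each of the 12 arrays for 12 numbered Zfp genes, with points for arrays and black marks for the mean and SD of 4 arrays. Zfp786, Zfp703, Zfp362 and Zfp101 lie highest on the IL4 arrays. Zfp949, Zfp738, Zfp384 and Zfp382 lie highest on the emodin arrays, also with spike-in scaling, where the rise of Zfp382 against IL4 is no longer called. Zfp710, Zfp41, Zfp318 and Zfp248 lie lowest there; the control levels of Zfp786 and the emodin levels of Zfp248 are below background.

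Emodin with IL4 against IL4 alone asks what emodin changed in cells given the cytokine. Here members were called lower more often than higher: 133 of 293 were lower and 80 higher, and 80 were not called. Of all tested genes 26.5% were called lower and 39.4% higher, so the split ran the other way. The members' median difference was -0.17, while that of all genes was 0.17. Called differences of at least 2-fold numbered 51 downward and 14 upward among the 293 members, and were not counted over all genes. These counts include members that passed the filter through 1 group alone and so had to differ. Among the members above background on all 12 arrays, with the probe chosen anew, 108 of 262 were lower and 80 higher, while 26.3% and 42.2% of genes under the same filter were so called.

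The members called lower were spread over the range of signal, with the widest gap to all genes at low signal. When all genes were ordered by mean signal into 3 equal classes, 50 of the 88 members in the dimmest class were called lower, or 56.8%, against 20.8% of all genes in that class. In the middle class 66 of 153 members were lower (43.1%, against 35.5% of genes). In the brightest class 17 of 52 members were lower (32.7%, against 23.3%), and 16 were higher (30.8%, against 47.7%).

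**Figure D2:**
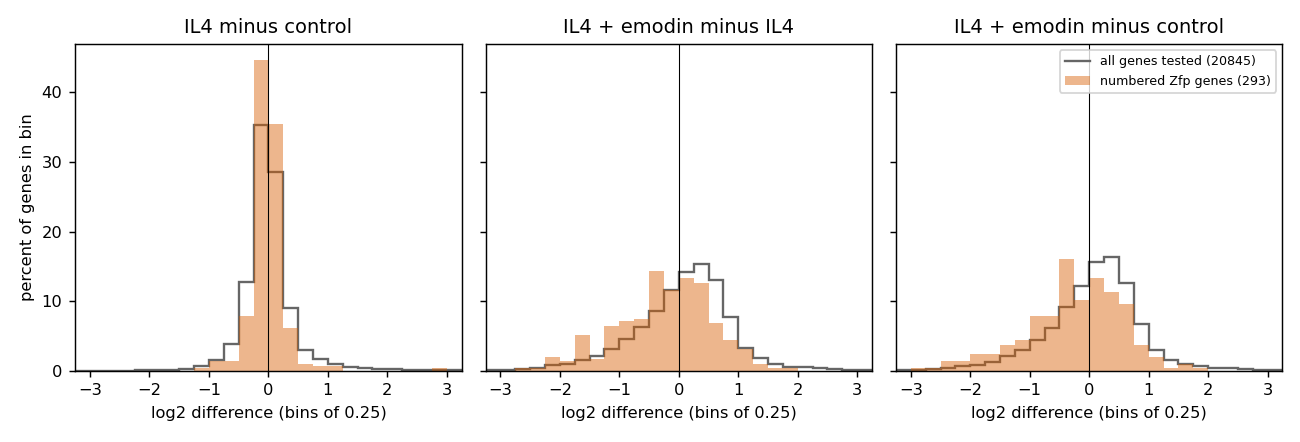
Percent of genes (y axis) in each bin of 0.25 of the log2 difference (x axis) for the 3 comparisons, with filled bars for the 293 numbered Zfp genes and a grey outline for all 20845 tested genes. For IL4 against control both centre on -0.03; in both emodin comparisons the Zfp genes lie to the left, with medians of -0.17 and -0.21 against 0.17 and 0.15, and with spike-in scaling members and all genes alike lie below 0.

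The number of members called higher depended on how the arrays were scaled. With each array centred on its spike-in controls, the median over all genes moved by -1.07 in this comparison, and 265 members were called lower and 3 higher, against 80.2% and 3.53% of all genes. The members' median was then -1.24 and that of all genes -0.91. Of the 133 falls, 133 were called lower under spike-in scaling as well, while 54 members that had been called higher were called lower. The 3 members called higher under both were Zfp949, Zfp738 and Zfp384, at 0.88, 0.57 and 0.42. With quantile normalization 73 members were higher and 137 lower, beside 29.4% and 30.9% of all genes. Rises are therefore stated below as rises relative to the array's 75th percentile.

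**Figure D3:**
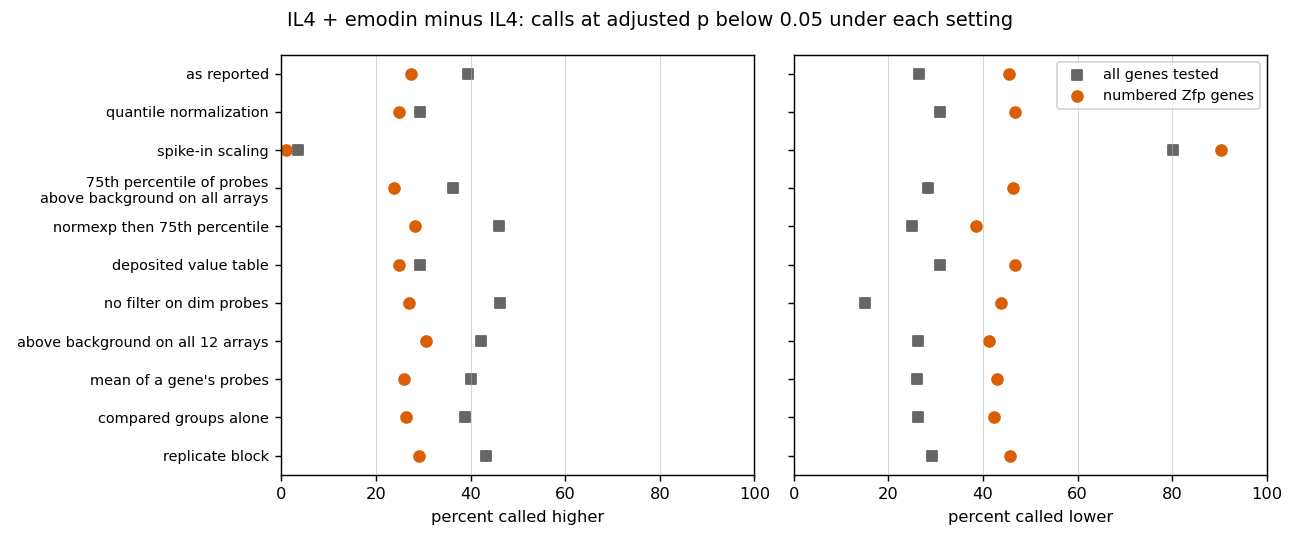
Percent of genes called higher (left) and lower (right) with emodin and IL4 against IL4 alone under each processing setting (y axis), with orange points for the numbered Zfp genes and grey squares for all genes tested. The Zfp genes were called lower more often than all genes under each setting drawn, from 38.6% with normexp to 90.4% with spike-in scaling, where all genes reached 80.2%.

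Zfp949 showed the largest rise. Its levels were -0.73, -0.62, -0.61 and -0.67 on IL4 arrays and 1.31, 1.23, 1.40 and 1.24 on emodin arrays, with controls between -0.45 and -0.11. The emodin arrays stood above all 8 others, and the rise of 1.95 ± 0.09 (limma adjusted p = 6.6e-09) is 3.87-fold. A second, dimmer probe of Zfp949 differed by 0.16 (adjusted p over probes of 0.323), so the rise was seen with 1 of its 2 probes.

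Zfp738 had levels of -1.66, -1.57, -1.68 and -1.88 with IL4 and -0.07, -0.20, 0.09 and -0.06 with emodin. The groups were well apart, by 1.64 ± 0.12 (limma adjusted p = 3.85e-07), or 3.12-fold. Zfp384, a DNA-binding nuclear matrix protein also called CIZ, went from -1.50, -1.56, -1.64 and -1.26 to -0.03, -0.03, -0.15 and 0.21, a difference of 1.49 ± 0.12 (limma adjusted p = 7.86e-07). Its relative Zfp362 went the other way, to 1.18, 0.91, 0.82 and 0.74 on emodin arrays, a difference of -0.89 ± 0.14 (limma adjusted p = 0.000184).

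Zfp369, which binds the p75 neurotrophin receptor, rose by 1.46 ± 0.23 (limma adjusted p = 0.000136). Its emodin levels of -1.40, -1.14, -1.15 and -1.39 lay above all IL4 levels, which ran from -2.93 to -2.55, and 1 control array stood at -1.70 while the others lay at or below -2.53. Zfp382 rose by 1.28 ± 0.09, Zfp62 by 1.12 ± 0.12, Zfp1 by 1.12 ± 0.08 and Zfp869 by 1.12 ± 0.07. With spike-in scaling these 5 rises kept their sign without a call, at 0.39, 0.21, 0.05, 0.05 and 0.04. The other 72 members called higher rose by 0.17 to 1.16, with a median of 0.52.

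Zfp101 showed the largest fall among members above background on all 12 arrays. Its emodin levels were -2.62, -2.74, -2.69 and -3.09, against -0.40 to -0.28 with IL4 and -1.22 to -0.92 in controls. The emodin arrays thus lay below both other groups, and the difference from IL4 was -2.46 ± 0.10 (limma adjusted p = 4.87e-09), a 5.49-fold fall.

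Zfp710 had levels of 4.85, 4.59, 4.53 and 4.79 with IL4 and 2.84, 2.31, 2.37 and 2.56 with emodin, a difference of -2.17 ± 0.13 (limma adjusted p = 5.71e-08). Zfp41 went from -0.65, -0.83, -0.63 and -0.68 to -2.65, -3.30, -2.03 and -3.01, a difference of -2.05 ± 0.21 (limma adjusted p = 4.55e-06), or -1.35 with normexp. The emodin arrays of Zfp41 spread over more than a log2 unit and still lay below all other arrays. Zfp64, an activator of the Mll gene, fell by 1.66 on its brightest probe, from between 1.93 and 1.99 to 0.48, 0.14, 0.47 and 0.09 (SE 0.09; limma adjusted p = 4.02e-08). Its other probe rose by 0.56 (adjusted p over probes of 0.000169), and the direction for the gene is uncertain.

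Fewer genes were detected on the emodin arrays, among members and all genes alike. Of the 293 members, 264 to 274 lay above background on single emodin arrays (90.1% to 93.5%), 289 to 291 on control and 292 to 293 on IL4 arrays. Over all tested genes the shares were 92.9% to 94.97% on emodin, 96.2% to 97.1% on control and 98.2% to 99.0% on IL4 arrays. The limit of detection, the lowest level called above background, was -4.07 to -3.80 on emodin arrays and -4.90 to -4.35 on the others. Zfp248 had levels of -2.18, -2.47, -2.22 and -2.16 with IL4 and was below background on all 4 emodin arrays, so that it fell at least 3.20-fold. Zfp229 likewise fell at least 2.11-fold, Zfp799 at least 1.60-fold and Zfp788 at least 1.18-fold. These members passed the filter through the control and IL4 arrays alone, so falls on the emodin arrays were favoured. With normexp background correction, which adds an offset of 50 to each intensity, the log2 differences of Zfp799 and Zfp788 were -0.23 and -0.14 and no longer called (limma adjusted p = 0.0656 and 0.198), and those of Zfp248 and Zfp229 were -0.57 and -0.28 and called. Zfp786 differed by -1.67 from its IL4 level and was above background on 3 of 4 emodin arrays. It had passed the filter through the IL4 arrays alone, so a fall from them was favoured and no test is given.

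In all, 261 members were above background on all 12 arrays, and 25 on all control and IL4 arrays but not on all emodin arrays. Zfp365, Zfp473, Zfp516, Zfp560 and Zfp786 passed through the IL4 arrays alone, and Zfp13 and Zfp366 through the control arrays alone. Just outside the rule lay Zfp462, Zfp558, Zfp599 and Zfp60, each above background on 3 arrays of a group, with Zfp558 at mean levels of -3.68, -5.22 and -4.27 in control, IL4 and emodin arrays and Zfp60 at -4.41, -4.16 and -4.27. Just inside lay Zfp366 at -4.69 and Zfp13 at -3.55 on emodin arrays.

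Members with a known role were listed with earlier results of these data known, and 25 of the 30 listed passed the filter. Of these, 13 were higher, 6 lower and 6 not called with emodin against IL4, with a median of 0.30, beside 39.4% higher, 26.5% lower and a median of 0.17 over all genes. The 12 rises other than that of Zfp369 were all negative under spike-in scaling, from -0.77 for Zfp110 to -0.15 for Zfp346, so they are rises relative to the 75th percentile alone.

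Of members that bind RNA or act on ribosomes, Zfp622, a factor of the large ribosomal subunit, had levels of 5.91, 6.08, 5.98 and 5.86 with IL4 and 6.70, 6.74, 6.74 and 6.76 with emodin. All 4 emodin arrays lay above all others, by 0.78 ± 0.07 (limma adjusted p = 1.08e-06), and by 0.45 with quantile normalization. Zfp346, which binds double-stranded RNA, rose by 0.93 ± 0.10, and Zfp326, which couples splicing to RNA polymerase elongation, by 0.44 ± 0.10. Zfp598, the ubiquitin ligase that marks collided ribosomes, rose by 0.39 ± 0.14 with adjusted p = 0.0306, and lost its call without IL4 array 2, 3 or 4 or emodin array 2 or 4, with 0.26 without emodin array 2. Zfp106, an RNA-binding protein, differed by 0.14 ± 0.10 (limma adjusted p = 0.245).

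Of members that act on transcription and chromatin, Zfp423, a regulator of preadipocyte commitment, rose by 0.91 ± 0.19 and Zfp335, a partner of histone methyltransferase complexes, by 0.82 ± 0.14. Zfp451, a SUMO ligase, had levels of 0.12, -0.07, -0.20 and -0.05 with IL4 and 0.76, 0.76, 0.56 and 0.58 with emodin, groups that did not overlap and differed by 0.71 ± 0.09 (limma adjusted p = 1.9e-05). Zfp410, an activator of Chd4, rose by 0.53 ± 0.08 and by 0.72 on its second probe. Zfp143 rose by 0.42 ± 0.08 and by 0.96 on its second probe, and Zfp148, a GC-box binding protein, by 0.33 ± 0.10. Zfp110, which also binds the p75 neurotrophin receptor, rose by 0.30 ± 0.07. Zfp281, a second GC-box binding protein, Zfp592, Zfp687 and Zfp638, a partner of the HUSH complex in silencing unintegrated retroviral DNA, differed by 0.01, 0.09, 0.14 and 0.09 and were not called.

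Both KRAB proteins that protect genomic imprints were measured. Zfp57 had levels of 0.15, 0.36, 0.06 and -0.96 with IL4 and 0.70, 0.69, 0.66 and 0.60 with emodin, a difference of 0.76 ± 0.23 (limma adjusted p = 0.0115) in which IL4 array 4 stood lowest. Without that array the difference was 0.47 ± 0.11 (limma adjusted p = 0.00344). Zfp445 differed by 0.16 ± 0.11 (limma adjusted p = 0.206).

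The falls in this list included that of Zfp318. This gene, which is needed for IgD transcripts in B cells, had levels of 1.22, 0.85, 0.87 and 0.74 with IL4 and -0.56, -0.63, -0.87 and -0.73 with emodin. The groups lay apart by -1.62 ± 0.13 (limma adjusted p = 6.15e-07). Of its other 2 probes one fell by 1.05 and the other gave 0.32 (adjusted p over probes of 0.167). The B cell markers fell with it: 3 of the 3 that passed the filter were lower, with a median of -2.17, and the part of B cells in this fall was not tested. Zfp644, a partner of the H3K9 methyltransferases Ehmt1 and Ehmt2, fell by 0.67 (SE 0.06; limma adjusted p = 2.8e-06), from 1.66, 1.60, 1.64 and 1.59 to 1.04, 0.89, 1.02 and 0.86. Zfp217, a corepressor amplified in tumours, fell by 0.43 (SE 0.14; limma adjusted p = 0.0163), and its other probe gave -0.04. The brightest probes of Zfp395, Zfp809 and Zfp207, a spindle checkpoint protein, fell by 1.19, 0.86 and 0.74, yet each had a second probe called in the opposite direction.

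The partners of the KRAB domain did not move as one. Of 21 corepressor genes tested, 5 were higher and 9 lower with emodin against IL4, with a median of -0.04. Over all genes 39.4% were higher and 26.5% lower. Trim28 itself differed by -0.22 ± 0.08 (limma adjusted p = 0.0406) and Setdb1 by -0.62 ± 0.09 (limma adjusted p = 6.79e-05). Cbx1, a heterochromatin protein, rose by 2.27 ± 0.15 and Hdac1, a histone deacetylase, fell by 1.28 (SE 0.08). All 4 genes of the HUSH silencing complex and its partner Morc2a were lower: Tasor by 1.70, Pphln1 by 0.77, Morc2a by 0.60 and Mphosph8 by 0.23. Of 15 SUMO pathway genes 5 were higher and 5 lower. Under spike-in scaling Cbx1 kept its rise, at 1.20, and was the 1 corepressor gene called higher, while 16 corepressor, 4 HUSH and 14 SUMO pathway genes were lower. Of all genes 3.53% were higher and 80.2% lower under that scaling. With IL4 against control, Dnmt1 was the 1 corepressor gene called (-0.52 ± 0.11), Pphln1 rose by 0.58 ± 0.08, and Senp7 fell by 0.45 (SE 0.09).

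Other zinc finger families were counted the same way with emodin against IL4, where 39.4% of all genes were higher and 26.5% lower. In the Zbtb family, whose proteins pair zinc fingers with a BTB domain, 11 of 38 genes were higher and 14 lower, with a median of -0.04. Among genes with a letter in the symbol after Zfp, 8 of 25 were higher and 10 lower, with a median of -0.16. The Zkscan genes split 4 to 4 of 9 and the Zscan genes 1 to 3 of 8, and of 15 CCCH genes 6 were higher and 4 lower. The Zdhhc genes, which encode palmitoyl transferases and bind no DNA, were 5 higher and 8 lower of 18, with a median of -0.16. Under spike-in scaling the rises of these families were mostly gone: 2 Zbtb genes were higher and 29 lower, 1 and 20 of the lettered Zfp genes, 0 and 9 of the Zkscan, 1 and 7 of the Zscan, 0 and 13 of the CCCH and 0 and 17 of the Zdhhc genes. In that setting 3.53% of all genes were higher and 80.2% lower. No test of one family against another was made.

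Many numbered Zfp genes stand side by side in the genome as copies of each other, and 292 members could be placed in gene order on GRCm38.p6. Numbered Zfp genes, members or not, with at most 3 other genes between them were joined into runs. Of these runs, 23 held 3 or more members. Runs of 3 or more numbered Zfp genes, whether or not all were members, held 159 members. In those runs 25.2% of members were higher and 48.4% lower with emodin against IL4, and of the 133 members alone or in a pair 30.1% were higher and 41.4% lower, beside 39.4% and 26.5% of all genes. Probes of near-identical neighbours can share target RNA, so single values within a run are uncertain.

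**Figure D4:**
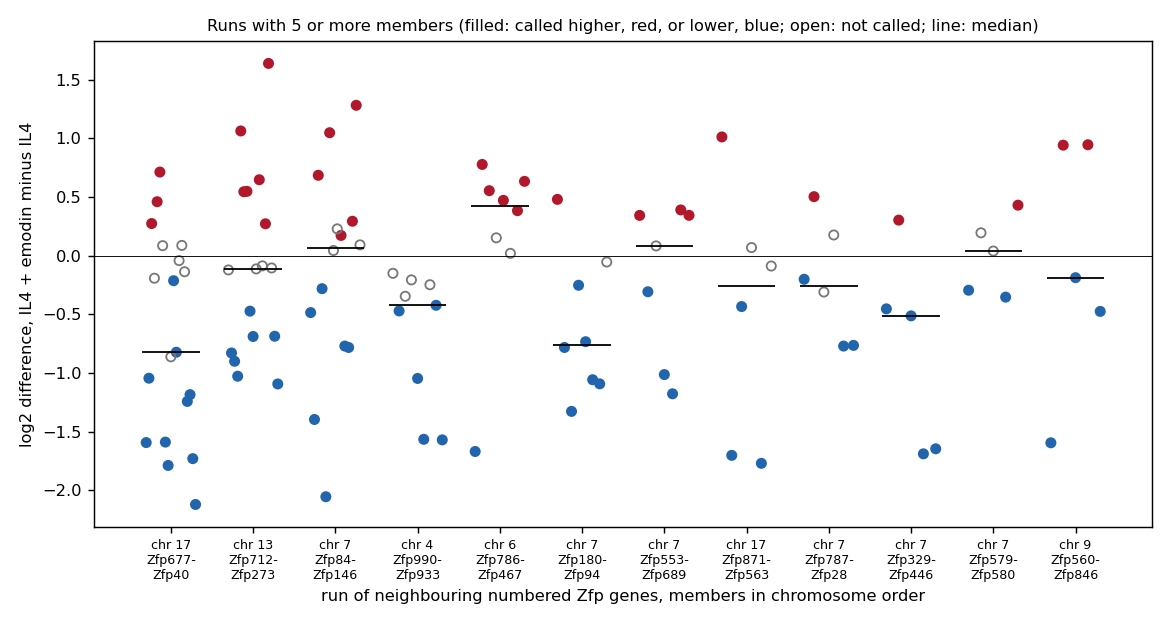
Log2 difference with emodin and IL4 against IL4 alone (y axis) for each member of the 12 runs with 5 or more members (x axis), with filled points for calls, open points for no call and a line at the run's median. The largest run, on chromosome 17, has a median of -0.82, and the chromosome 6 run from Zfp786 to Zfp467 one of 0.43; with spike-in scaling the median of all genes moves down by a further 1.07.

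The largest run lay on chromosome 17 from Zfp677 to Zfp40 and held 19 members, of which 10 were lower and 3 higher, with a median of -0.82. Zfp677 and Zfp760 fell by 1.59 each, Zfp758 by 1.24 and Zfp946 by 1.18, while Zfp948 and Zfp52 in the same run rose by 0.71 and 0.46. The chromosome 13 run of 17 members was mixed, with 6 higher and 7 lower: Zfp738 and Zfp458 rose by 1.64 and 1.06, and Zfp273 and Zfp455 fell by 1.09 and 1.03. In the chromosome 6 run of 8 members from Zfp786 to Zfp467, 5 were higher and 1, Zfp786, lower. Zfp786 had passed the filter through the IL4 arrays alone, so its fall was favoured. Zfp467, among the 5 higher, had probes called in both directions. In the chromosome 7 run of 8 from Zfp180 to Zfp94, 6 were lower, with a median of -0.76, and Zfp180 was higher. Over all genes 39.4% were higher and 26.5% lower. Some falls in these runs were in members that passed the filter through the control and IL4 arrays alone, and so were favoured. They were Zfp40, Zfp229 and Zfp945 on chromosome 17, and Zfp708 and Zfp759 on chromosome 13.

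A pair of short runs on chromosome 8, singled out after their values were seen, differed in direction. In the run of Zfp709, Zfp882, Zfp617 and Zfp961, 4 of 4 members were lower, with a median of -1.03. In the run of Zfp868, Zfp869, Zfp963 and Zfp866, 3 were higher and 1 was lower, with a median of 0.48. Over all genes 39.4% were higher and 26.5% lower. Zfp882 and Zfp963, both lower, passed the filter through the control and IL4 arrays alone, so their falls were favoured. The rises in the second run, of 0.28 to 1.12, lie close to or under the shift of 1.07 that spike-in scaling brings.

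Probes of the same gene gave a check within the arrays. Of the 293 members, 198 had 1 kept probe and 95 had 2 or more. With emodin against IL4, all kept probes had the same sign in 64 of the 95 members and opposite signs in 31. In 13 of those 31, both directions were called: Zfp14, Zfp35, Zfp58, Zfp64, Zfp84, Zfp207, Zfp266, Zfp395, Zfp467, Zfp595, Zfp672, Zfp809 and Zfp984. The brightest probe of Zfp35 gave -0.22 and the other 1.29, and the probes of Zfp14 gave 0.17 and -1.35. Probes of Zfp266 gave 0.95 and -0.88, and those of Zfp207 gave -0.74 and 0.96. With IL4 against control, opposite signs occurred in 22 members, and in 0 of them were both directions called. Where within its transcripts each probe binds was not analysed here, and whether transcript forms differ was not tested.

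**Figure D5:**
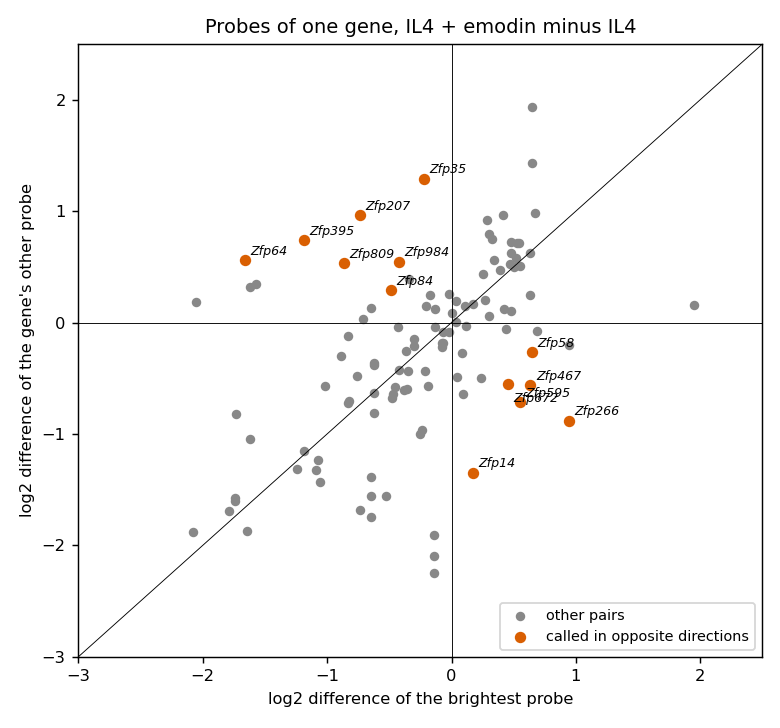
Log2 difference with emodin and IL4 against IL4 alone of a gene's other kept probes (y axis) against that of its brightest probe (x axis), for 112 other probes of 95 members, with the diagonal drawn. The 81 pairs in the lower left and upper right share a sign; the orange points, named, are 13 pairs called in opposite directions, which under spike-in scaling would move down on both axes.

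Emodin with IL4 against control shares its emodin arrays with the last comparison and its control arrays with the first, so its values are given beside theirs and not as separate support. Here 74 members were higher and 127 lower, beside 37.3% and 25.6% of all genes, with a median of -0.21 against 0.15. Under spike-in scaling 5 were higher and 251 lower, and Zfp738, Zfp382, Zfp949, Zfp384 and Zfp1 were the 5. Of all genes 4.14% were higher and 75.4% lower under that scaling. Zfp738 rose by 1.78 ± 0.12 relative to control, Zfp382 by 1.74 ± 0.09, Zfp949 by 1.63 ± 0.09 and Zfp384 by 1.58 ± 0.12. Zfp786, below background in controls, rose at least 1.94-fold.

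Of the falls against control, Zfp229 fell at least 4.68-fold and Zfp248 at least 3.62-fold, while Zfp788 and Zfp30 fell at least 1.54-fold and 1.49-fold. Since these members passed the filter through the control and IL4 arrays alone, such falls were favoured. Zfp41 fell by 2.34, Zfp710 by 2.14, Zfp318 by 1.99 and Zfp825 by 1.83 on the log2 scale, each with 4 emodin arrays below 4 control arrays. Zfp825 had control levels of 0.04, 0.31, 0.24 and 0.33 and emodin levels of -1.49, -1.88, -1.33 and -1.71 (limma adjusted p = 1e-07).

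Genes called in the comparison of IL4 with control stood as follows on the emodin arrays. Zfp703, Zfp362 and Zfp142, higher with IL4, differed from control by 0.32 ± 0.14, -0.02 ± 0.14 and -0.13 ± 0.14 with emodin present, with adjusted p of 0.0654, 0.908 and 0.448. Zfp523 and Zfp507 differed by 0.58 ± 0.11 and 0.46 ± 0.12. Zfp101 fell below control, by 1.72 (SE 0.10; limma adjusted p = 6.54e-08). Among genes lower with IL4, Zfp467 differed from control by 0.04 ± 0.07 (limma adjusted p = 0.606) and Zfp275 by -0.83 ± 0.08 (limma adjusted p = 2.23e-06). For Zfp467, 1 of the other 3 probes differed from control by -1.38. Spike-in scaling moved the differences between emodin and control arrays by -0.956. The positive differences of Zfp703, Zfp523 and Zfp507 are smaller than this shift and turn negative under it. Zfp362, Zfp142 and Zfp467 then lie well below control, while the falls of Zfp101 and Zfp275 keep their sign. Levels near control, or above it, in these genes therefore depend on the scaling.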

How the data were processed

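The authors deposited 1 scanner file for each of the 12 one-colour (Cy3) Agilent arrays and a value table. Per the file headers, the scanner files hold spot intensity from Feature Extraction 10.7.3.1, with background subtracted within each array. The deposited table holds log2 values that correlated at 1.00, on each array, with quantile-normalized intensities centred on the probe's median over the arrays, and served as an alternative. Its column medians ran from -0.008 to 0.014; the direction is that of the intensities.

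Here log2 intensity minus the array's 75th percentile was fitted with limma 3.58.1 (lmFit, eBayes) in R 4.3.3 as 3 group means over 12 arrays, with 9 residual degrees of freedom and Benjamini-Hochberg adjustment over 20845 genes. Control spots and spots marked as outliers were left out. Of 55681 probes, 27509 had a symbol in the RefSeq table (GRCm38.p6), and 27688 probes passed the filter. "At least" folds use the lowest signal above background on each dim array. A fall of 1 on the log2 scale is 2-fold. The fit was tested on simulated data, and the number of arrays limits the precision.

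Groups and replicate numbers came from the sample titles. Deviations of arrays with the same number correlated at 0.31 to 0.52 for IL4 and control; against emodin arrays, number 2 correlated at 0.06 and 0.09 and the others at 0.31 to 0.51. By this check alone the numbers go together for IL4 and control arrays. In every group the number was also the array's column on its slide, so pairing and column cannot be told apart. The labels do not say what the numbers mark.

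The members and gene lists were chosen with earlier results of these data known. Named genes were the 8 largest called rises and falls of each comparison among members whose groups did not overlap, leaving out those measured on only some arrays of a group, members with a listed role, members of the largest runs, members whose probes disagreed, and up to 4 called genes of each other list. Alternatives were quantile, spike-in and other percentile scaling, normexp with offset 50 (on the median signal), the deposited table, no filter and a stricter filter, the mean of a gene's probes, the compared groups alone (for IL4 against control the value within the slide), the replicate block, and leaving out each array.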

Additional observations from a re-analysis of the deposited data

Results flagged for a closer look

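Among 165 groups of 4 arrays examined for 55 named members, 7 had 1 array standing far from the other 3, where chance gives about 1 in 20. Zfp148 did so in 2 groups: IL4 array 1 was highest at a level of 2.61 (next 2.42), and emodin array 3 lowest at 2.59 (next 2.84). Control array 1 was highest for Zfp281 at 2.70 (next 2.57) and lowest for Zfp507 at -3.27 (next -3.04) and for Zfp738 at -2.21 (next -1.75). For Zfp592, IL4 array 1 was highest at 3.21 (next 2.95). For Zfp644, control array 4 was lowest at 1.57, next to 1.61. Array 1 of the control or IL4 group was the far one in 5 of the 7.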

How the results depend on the processing

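With spike-in scaling, the members called went from 15 to 5 lower for IL4 against control, from 80 to 3 higher and 133 to 265 lower for emodin against IL4, and from 74 to 5 higher and 127 to 251 lower for emodin against control. Normexp gave 29 lower for IL4 against control. Leaving out single arrays gave 13 to 16 higher and 7 to 13 lower for IL4 against control, 69 to 78 higher and 118 to 132 lower for emodin against IL4, and 68 to 77 and 116 to 135 against control. The other settings kept each count within 1.5 times. With the replicate block, which treats equal numbers as pairs, the counts were 19 higher and 21 lower, 85 and 134, and 84 and 136 in the same order. Spike-in scaling turned these rises with emodin against IL4 into falls: Zfp326 (-0.63), Zfp346 (-0.15), Zfp143 (-0.66), Zfp423 (-0.16), Zfp410 (-0.55), Zfp110 (-0.77), Zfp148 (-0.74), Zfp451 (-0.36), Zfp57 (-0.31), Zfp598 (-0.68), Zfp335 (-0.25) and Zfp622 (-0.30). Against control it did so for Zfp326 (-0.66), Zfp346 (-0.065), Zfp143 (-0.52), Zfp423 (-0.48), Zfp410 (-0.31), Zfp110 (-0.59), Zfp148 (-0.52), Zfp598 (-0.58), Zfp335 (-0.26) and Zfp622 (-0.18). The mean over a gene's probes turned the falls of Zfp207 against IL4 (0.11) and of Zfp809 against control (0.073). Apart from the spike-in shift, the cause of these changes was not tested. Members near the background limit carry the least certain differences.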
